A study of Mus musculus with 18 samples.

Results

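Collagens are the main structural proteins of the extracellular matrix, and the genes described here are the collagen chains together with the enzymes and chaperones that make a collagen fit for secretion and cross-linking. The members were every gene whose symbol has the form Col, number, a, number, plus 16 named genes: P4ha1, P4ha2, P4ha3, P4hb, Leprel1 and Crtap (prolyl hydroxylation), Plod1, Plod2 and Plod3 (lysyl hydroxylation), Lox, Loxl1, Loxl2, Loxl3 and Loxl4 (lysyl oxidation), and Serpinh1 and Pcolce (folding and propeptide removal). A gene counted as measured where a probe set names it alone, and the probe set with the highest mean was used. This gave 59 members, 44 collagens and 15 enzymes and chaperones, of 19937 genes measured. Loxl2 has no value because its probe set also names a second gene, and Leprel1 is listed under its current symbol, P3h2. All 59 members were among the 15711 genes tested.

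A collagen chain is a long run of glycine-led triplets, and 3 chains wind into a triple helix in the endoplasmic reticulum. Prolyl 4-hydroxylase, whose catalytic subunits are P4ha1, P4ha2 and P4ha3 and whose common subunit is P4hb, hydroxylates prolines and so makes the helix stable at body temperature. Plod enzymes hydroxylate lysines, Serpinh1 (HSP47) escorts the folded procollagen, Pcolce speeds the removal of the C-terminal propeptide outside the cell, and the Lox enzymes oxidise lysines so that neighbouring molecules cross-link. Fibroblasts are the classical source of the fibrillar collagens.

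The cells were mouse embryonic fibroblasts of strain 129sv/ev, in a wild-type line (WT, named 5.4) and an Nfat5 knock-out line (KO, named 5.1). Nfat5 is a transcription factor known for switching on osmoprotective genes in hypertonic medium. RNA of 6 groups was measured on 18 arrays, 3 a group: WT cells in isotonic medium, WT cells in hypertonic medium, the same pair after 1 h of pretreatment with 100 nM Torin1, an inhibitor of the mTOR kinase, and KO cells in isotonic and in hypertonic medium. The titles give the media as 300 and 500 with no unit, and the labels do not state how long the cells stayed in hypertonic medium. KO cells were measured without Torin1 in the groups used here. Each genotype is 1 line, so the genotype and the line cannot be told apart, and every KO against WT value below compares these 2 lines. The arrays of each group are numbered 1, 2 and 4, and nothing says whether they came from separate cultures, so each p-value reflects no more than the scatter among these arrays, which may be technical.

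Arrays of a group correlated with r of 0.968 to 0.997 over all genes tested, and array medians lay between 6.96 and 7.13 (log2). KO isotonic array 1 carries KO in its title and the WT line in its other labels. It was kept in the KO group by its title, and its own values lay with the KO arrays, for example 8.00 for Col8a1, where the other KO isotonic arrays read 8.44 and 8.72 and the WT isotonic arrays 11.07 to 11.25. Nfat5 itself read 10.13, 9.99 and 9.94 on WT isotonic arrays 1, 2 and 4 and 9.83, 9.72 and 9.73 on the KO ones, a small gap, and a probe set spread over a whole transcript does not check a deletion of some exons. The fibroblast markers Vim and Fn1 were at 13.8 to 14.0 in the mean of all 6 groups. Of the 9 fibroblast markers measured, 8 passed the filter of 5.86. Fap (4.53 to 5.68) was below it in every group mean. Lum was below it in every WT group mean (4.27 to 4.43) and above it in the KO ones (6.96 and 7.19). Among the markers of other cells 4 of 6 leukocyte and 4 of 6 endothelial genes passed the filter. So did 6 of 6 epithelial, 5 of 5 chondrocyte, 2 of 3 osteoblast and 4 of 5 skeletal muscle genes. Passing that filter thus does not tell these cell types from fibroblasts. Ptprc, Adgre1, Kdr and Emcn were below it in every group mean, whereas the leukocyte genes Cd68 (7.93 to 8.43) and Csf1r (7.30 to 8.81) and the endothelial gene Tie1 (6.55 to 6.77) were above it.

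The lines also differed in markers of cell identity, and these values belong beside every KO against WT result below. Of 8 fibroblast markers tested, 3 were higher in the KO line in isotonic medium and 4 in hypertonic medium, none lower, among them Thy1 with a mean of 6.91 in WT and 10.8 in KO isotonic cells. Over all genes tested, 7.78% were called higher in isotonic and 13.8% in hypertonic medium. The summed signal of the fibroblast list spanned 15.2 to 15.4 (log2) over the WT isotonic arrays and 15.6 to 15.7 over the KO isotonic arrays. Among 5 chondrocyte markers only Sox9, a transcription factor of cartilage that also acts on collagen genes, was higher in the KO line in isotonic medium (11.9 against 9.28), and in hypertonic medium Matn3 was higher too (6.83 against 6.18). The summed signal of that list spanned 9.55 to 10.1 in WT and 11.2 to 12.4 in KO isotonic cells, whereas the cartilage matrix genes Acan, Comp and Matn1 stayed between 5.63 and 6.85 in every group mean. Of the 6 endothelial, 6 epithelial and 6 leukocyte markers measured, 1 of each list, Tek, Cdh1 and Lyz2, was higher in the KO line in both media, and Csf1r was lower in hypertonic medium. Their summed signals in isotonic medium spanned 8.40 to 8.48, 9.32 to 9.34 and 9.49 to 9.55 on the WT arrays and 8.69 to 9.48, 9.50 to 10.1 and 9.47 to 9.59 on the KO arrays. Of 3 osteoblast and 5 skeletal muscle markers measured, Sp7 and Des were higher in the KO line in isotonic medium and none was called in hypertonic medium. The part of these differences between lines in the collagen results was not tested.

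The sequence before the start of transcription is shown for 5 members on which the results turn: the subunit gene P4ha3, which changed with hypertonic medium, its paralogue P4ha2, the neighbours Col6a1 and Col6a2, which were both higher in the KO line, and Col8a1, the member with the largest fall there. Each is the 250 bases before the 5′-most start in RefSeq's promoter table on GRCm38.p6, written 5′ to 3′ on the strand of the gene. For P4ha3 the last 31 of these bases lie inside the interval RefSeq lists for the gene and were left out, so 219 are shown. P4ha3 lies at chr7:100285270-100285488 (plus strand), P4ha2 at chr11:54100674-54100923 (plus strand), Col6a1 at chr10:76726045-76726294 (minus strand), Col6a2 at chr10:76623631-76623880 (minus strand) and Col8a1 at chr16:57754738-57754987 (minus strand). Capitals mark the letters ACGTG or GCGTG, the core of hypoxia response elements, or GGAAA, the core that NFAT proteins bind, on either strand.
P4ha3: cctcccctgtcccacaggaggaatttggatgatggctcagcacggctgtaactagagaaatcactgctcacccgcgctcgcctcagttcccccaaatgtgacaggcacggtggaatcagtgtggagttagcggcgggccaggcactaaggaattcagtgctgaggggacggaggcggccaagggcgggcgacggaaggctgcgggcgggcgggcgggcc
P4ha2: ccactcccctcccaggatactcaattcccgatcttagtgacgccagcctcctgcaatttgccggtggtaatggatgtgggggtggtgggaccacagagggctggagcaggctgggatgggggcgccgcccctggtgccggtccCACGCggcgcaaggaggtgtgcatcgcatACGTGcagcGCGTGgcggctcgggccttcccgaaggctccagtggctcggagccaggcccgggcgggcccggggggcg
Col6a1: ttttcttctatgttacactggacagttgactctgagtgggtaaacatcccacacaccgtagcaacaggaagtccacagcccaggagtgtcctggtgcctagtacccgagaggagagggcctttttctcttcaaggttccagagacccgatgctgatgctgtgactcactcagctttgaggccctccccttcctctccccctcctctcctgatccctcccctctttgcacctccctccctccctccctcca
Col6a2: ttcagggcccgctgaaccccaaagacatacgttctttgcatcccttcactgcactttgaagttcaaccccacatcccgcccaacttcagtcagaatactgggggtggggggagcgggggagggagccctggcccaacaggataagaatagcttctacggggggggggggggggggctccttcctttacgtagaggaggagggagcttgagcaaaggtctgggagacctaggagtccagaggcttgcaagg
Col8a1: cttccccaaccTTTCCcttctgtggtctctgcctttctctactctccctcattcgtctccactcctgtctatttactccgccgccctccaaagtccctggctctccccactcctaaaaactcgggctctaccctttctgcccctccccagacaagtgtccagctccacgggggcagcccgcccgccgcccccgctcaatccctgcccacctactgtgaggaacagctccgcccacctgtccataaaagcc
P4ha2 held 3 hypoxia-type matches and P4ha3 none, so these paralogues differ in the bases shown. Col8a1 held 1 GGAAA match, and Col6a1 and Col6a2 held neither motif. Of 45 members with an entry, counted over all 250 bases, 19 (42.2%) held a hypoxia-type core and 21 (46.7%) held GGAAA, against 38.6% and 55.6% of 27025 promoters. A match is only a run of letters and says nothing about binding in these cells.

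Between the lines, some collagen chains differed, in both directions and by up to several-fold. Of the 44 collagens, 12 (27.3%) were called in isotonic and 10 (22.7%) in hypertonic medium, against 14.6% and 31.9% of all genes. In isotonic medium 11 members were higher and 4 lower in KO cells at an adjusted p below 0.05, and 44 did not pass. Over all genes tested, 7.78% were called higher and 6.84% lower in that comparison. The members' median change was 0.03 (log2) and that of all genes 0.02. In hypertonic medium 7 members were higher and 5 lower, where 13.8% of all genes were called higher and 18% lower, and the medians were 0.08 and 0.04. Thus 25.4% of the members were called in isotonic medium against 14.6% of all genes, and 20.3% against 31.9% in hypertonic medium. In all, 11 members were called in both media with the same direction, 4 in isotonic medium only and 1 in hypertonic medium only. Adjusted p-values here and below are from limma with Benjamini-Hochberg adjustment over all genes tested, changes are log2 differences of group means with their standard error (SE), and each group has 3 arrays.

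The outcome for hypertonic medium depended on the scaling of the arrays. The median over the genes tested lay lower on the KO hypertonic arrays (8.46 to 8.51) than on the WT hypertonic ones (8.64 to 8.67), and centring each array on that median moved all KO against WT changes in hypertonic medium up by 0.18. The share of higher genes among all calls then went from 43.4% to 72.2%, and the members called from 7 higher and 5 lower to 22 higher and 5 lower, or 45.8% of the members against 45% of all genes. With that centring P4hb (0.32, adjusted p = 0.0205) and Plod3 (0.26, adjusted p = 0.0134), which did not pass on the values as deposited, were among the higher ones. No member called in any comparison changed sign with that centring, and 7 that were not called did so here.

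**Figure D1:**
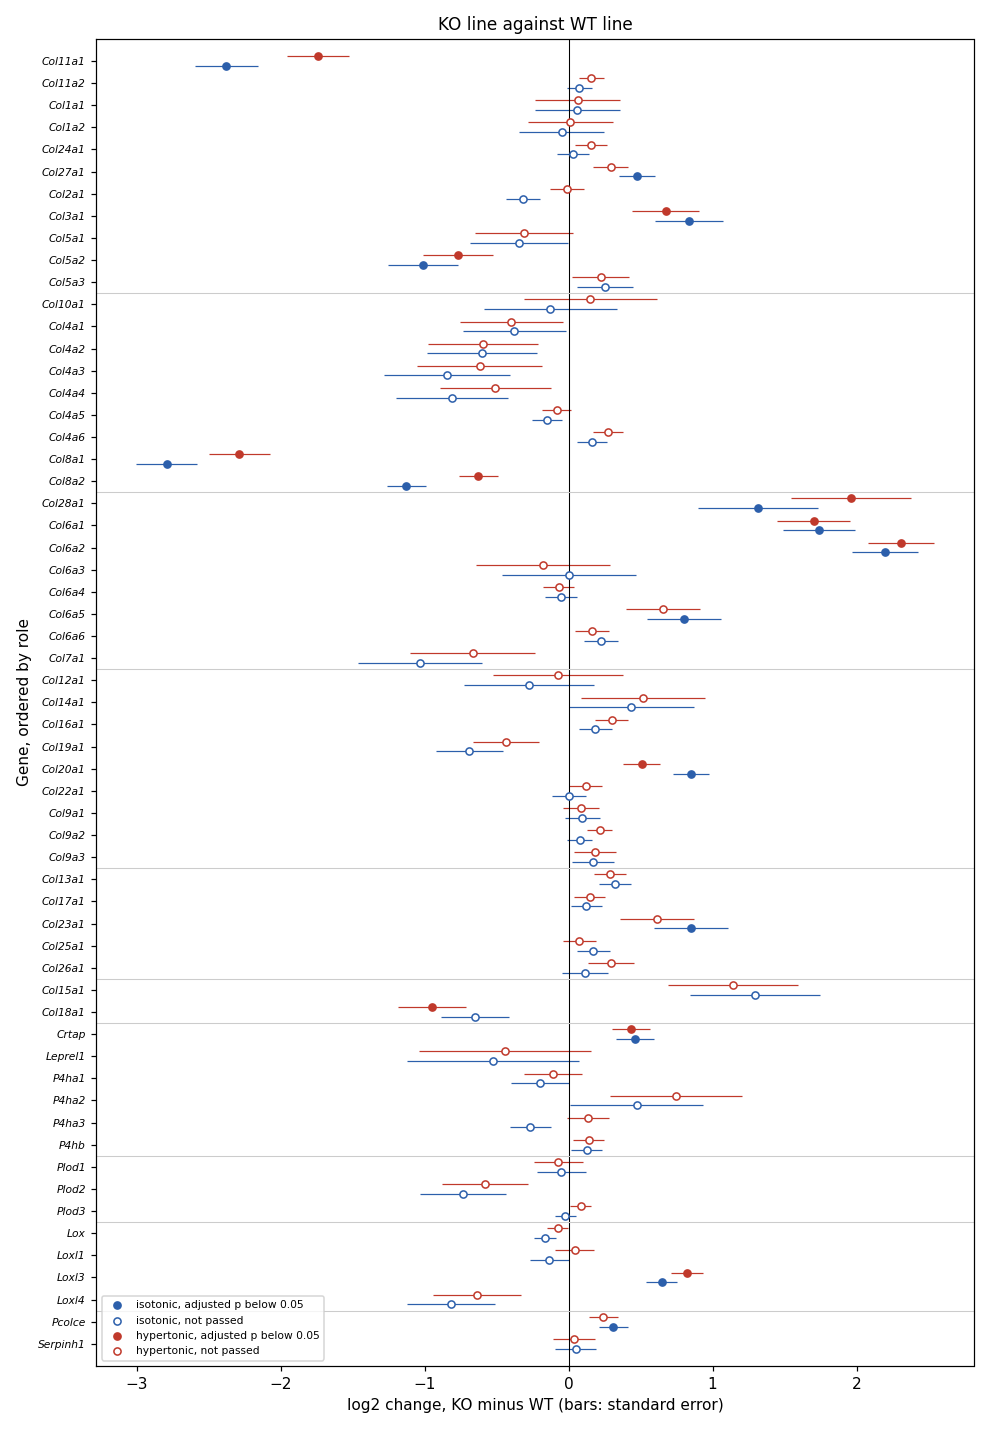
Change of each of the 59 members between the KO and WT lines (x axis, log2, KO minus WT), in isotonic (blue) and hypertonic (red) medium, with bars of 1 standard error and filled points at an adjusted p below 0.05. Grey lines separate the roles, and Col8a1 and Col11a1 lie farthest to the left and Col6a2 and Col6a1 farthest to the right in isotonic medium.

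Collagen VI forms beaded microfilaments around cells from a heterotrimer of an alpha-1, an alpha-2 and an alpha-3 chain, and only 2 of these chains were called between the lines. Col6a2 read 10.09, 9.91 and 9.48 on WT isotonic arrays 1, 2 and 4 and 12.13, 12.05 and 11.90 on the KO ones. In hypertonic medium it read 9.94, 9.71 and 9.16 in WT and 12.21, 12.00 and 11.51 in KO cells. All KO arrays lay more than 1 log2 unit above all WT arrays of the same medium. The change was 2.20 ± 0.23 (SE), or 4.60-fold, in isotonic medium (adjusted p = 4.93e-06) and 2.31 ± 0.23, or 4.95-fold, in hypertonic medium (adjusted p = 2.6e-06).

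Col6a1, its neighbour on chromosome 10 with no protein-coding gene between them, was higher as well. It read 10.80, 10.64 and 10.11 in WT and 12.44, 12.19 and 12.14 in KO isotonic cells, and 10.78, 10.63 and 9.90 against 12.23, 12.20 and 11.98 in hypertonic medium. The groups did not overlap, and KO cells were 3.34-fold higher in isotonic medium (1.74 ± 0.25, adjusted p = 0.00014) and 3.25-fold higher in hypertonic medium (1.70 ± 0.25, adjusted p = 0.000108). Col6a3, the third chain of the usual trimer, read 10.59, 10.75 and 9.88 in WT and 10.80, 10.55 and 9.87 in KO isotonic cells. Those values overlapped almost completely, and the difference was 0.00 ± 0.47 with a 95% interval of -0.99 to 0.99. In hypertonic medium it was -0.18 ± 0.47, with an interval of -1.17 to 0.81. Array 4 read below arrays 1 and 2 in all 6 groups, which widens these intervals. With all number 4 arrays left out, an alternative chosen after seeing the data, Col6a3 passed as lower in hypertonic medium (-0.36, adjusted p = 0.0367).

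Of the other beaded and anchoring collagens, Col28a1 was called higher in the KO line in both media and Col6a5 in isotonic medium only. Col28a1, a relative of collagen VI, read 6.50, 6.47 and 6.35 in WT isotonic cells and 7.12, 7.24 and 8.89 in KO isotonic cells, where array 4 stood well above the others. The difference was 1.31 ± 0.42 (adjusted p = 0.0452) in isotonic and 1.96 ± 0.42 (adjusted p = 0.002) in hypertonic medium. The isotonic call was lost without WT isotonic array 1, 2 or 4 or KO isotonic array 4 (adjusted p 0.0966 to 0.197), and without that KO array the difference was 0.74. It was also lost with no filter (0.0527), a second quantile normalization (0.0545), a trended robust prior (0.0625) and a fit of only these groups (0.112), and without all number 4 arrays the differences were 0.70 and 1.28, both of which passed. Col6a5, an alternative to the alpha-3 chain, read 8.04, 7.58 and 6.67 in KO and 6.80, 6.61 and 6.48 in WT isotonic cells, so array 4 overlapped with WT. Its isotonic call (0.80 ± 0.26, adjusted p = 0.0491) was lost without any 1 of WT isotonic arrays 1, 2 and 4 and KO isotonic arrays 1 and 2 (adjusted p 0.0714 to 0.238), and without KO array 1 the difference was 0.50. The same 4 settings that ended the call of Col28a1 ended this one (0.0502 to 0.174). With the mean of its probe sets in place of the brightest one the difference was 1.25 (adjusted p = 0.0105), so the probe sets of Col6a5 disagree. In hypertonic medium the brightest one had group means of 7.28 in KO and 6.63 in WT cells, which did not pass. Col7a1, the anchoring-fibril collagen of skin, was lower by a size that did not pass (-1.03 ± 0.43, adjusted p = 0.138 in isotonic medium).

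Of the 9 basement membrane and network collagens, 2 were lower and none higher in KO cells in each medium, with medians of -0.60 and -0.51. That is 22.2% of them in each medium, against 14.6% and 31.9% of all genes. Col8a1, a short-chain collagen of vessel walls and of a membrane of the cornea, read 11.23, 11.25 and 11.07 in WT and 8.00, 8.44 and 8.72 in KO isotonic cells. In hypertonic medium it read 11.22, 11.19 and 11.23 in WT and 8.56, 8.72 and 9.49 in KO cells. WT arrays lay within 0.2 of each other in each of these media, whereas KO arrays were low and more spread. Col8a1 was 6.93-fold lower in KO cells in isotonic medium (-2.79 ± 0.21, adjusted p = 1.49e-07) and 4.89-fold lower in hypertonic medium (-2.29 ± 0.21, adjusted p = 1.32e-06). Its partner chain Col8a2 read 8.67, 8.77 and 8.78 in WT and 7.45, 7.84 and 7.55 in KO isotonic cells, and was 2.19-fold lower there (-1.13 ± 0.13, adjusted p = 2.05e-05) and 1.54-fold lower in hypertonic medium (-0.63 ± 0.13, adjusted p = 0.00211). Of the collagen IV chains of basement membranes, none of the 6 passed in either medium, with Col4a1 at -0.38 ± 0.36 and -0.40 ± 0.36 and Col4a2 at -0.60 ± 0.38 and -0.60 ± 0.38.

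Of the 11 fibrillar chains, 2 were higher and 2 lower in KO cells in isotonic medium and 1 higher and 2 lower in hypertonic medium. That is 36.4% and 27.3% of them, against 14.6% and 31.9% of all genes. The chains of collagen I, the main collagen of bone and skin, did not pass. Col1a1 read 13.22, 13.18 and 12.62 in WT and 13.21, 12.96 and 13.03 in KO isotonic cells, and these values overlapped. The difference was 0.06 ± 0.29 with an interval of -0.57 to 0.69, and that of Col1a2 was -0.05 ± 0.29 with an interval of -0.68 to 0.57. In hypertonic medium the differences were 0.06 and 0.01. Col11a1, a minor chain that helps to start and limit fibrils, read 10.54, 10.35 and 10.68 in WT and 8.36, 8.33 and 7.74 in KO isotonic cells. In hypertonic medium it read 9.95, 9.74 and 10.43 against 8.19, 8.53 and 8.17. No KO array reached a WT array, and the fall was 5.20-fold in isotonic medium (-2.38 ± 0.22, adjusted p = 1.15e-06) and 3.35-fold in hypertonic medium (-1.74 ± 0.22, adjusted p = 2.38e-05).

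Col3a1 and Col5a2 are neighbours on chromosome 1 and went in opposite directions. Col3a1, which forms fibrils with collagen I in distensible tissues, read 11.40, 11.20 and 10.75 in WT and 12.08, 11.82 and 11.96 in KO isotonic cells. It was 1.78-fold higher in isotonic medium (0.84 ± 0.24, adjusted p = 0.0249) and 1.59-fold higher in hypertonic medium (0.67 ± 0.24, adjusted p = 0.0392), with no overlap in either. Col5a2, a chain of the fibril-nucleating collagen V, read 11.50, 11.37 and 10.68 in WT and 10.29, 10.07 and 10.15 in KO isotonic cells. It was 2.02-fold lower in isotonic medium (-1.01 ± 0.24, adjusted p = 0.00876) and 1.71-fold lower in hypertonic medium (-0.77 ± 0.24, adjusted p = 0.0231), while the partner chain Col5a1 did not pass (-0.35 ± 0.34 and -0.31 ± 0.34). Without the number 4 arrays Col5a1 was lower in both media (-0.58, adjusted p = 0.00395, and -0.59, adjusted p = 0.00195). Col27a1, a fibrillar collagen known from cartilage, read 7.81, 7.67 and 7.49 in WT and 8.21, 8.15 and 8.04 in KO isotonic cells, which did not overlap, and was higher there (0.47 ± 0.12, adjusted p = 0.016). The isotonic call of Col3a1 was lost without WT isotonic array 2 or 4 or KO isotonic array 1 or 4 (adjusted p 0.0520 to 0.108), and its hypertonic call without WT hypertonic array 2 or 4 or KO hypertonic array 1 or 2 (0.0792 to 0.137). Likewise the hypertonic call of Col5a2 was lost without WT hypertonic array 1 or 2 or KO hypertonic array 2 or 4 (0.0523 to 0.0769), and the isotonic call of Col27a1 without WT isotonic array 4 or KO isotonic array 1 or 2 (0.0522 to 0.0747).

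**Figure D2:**
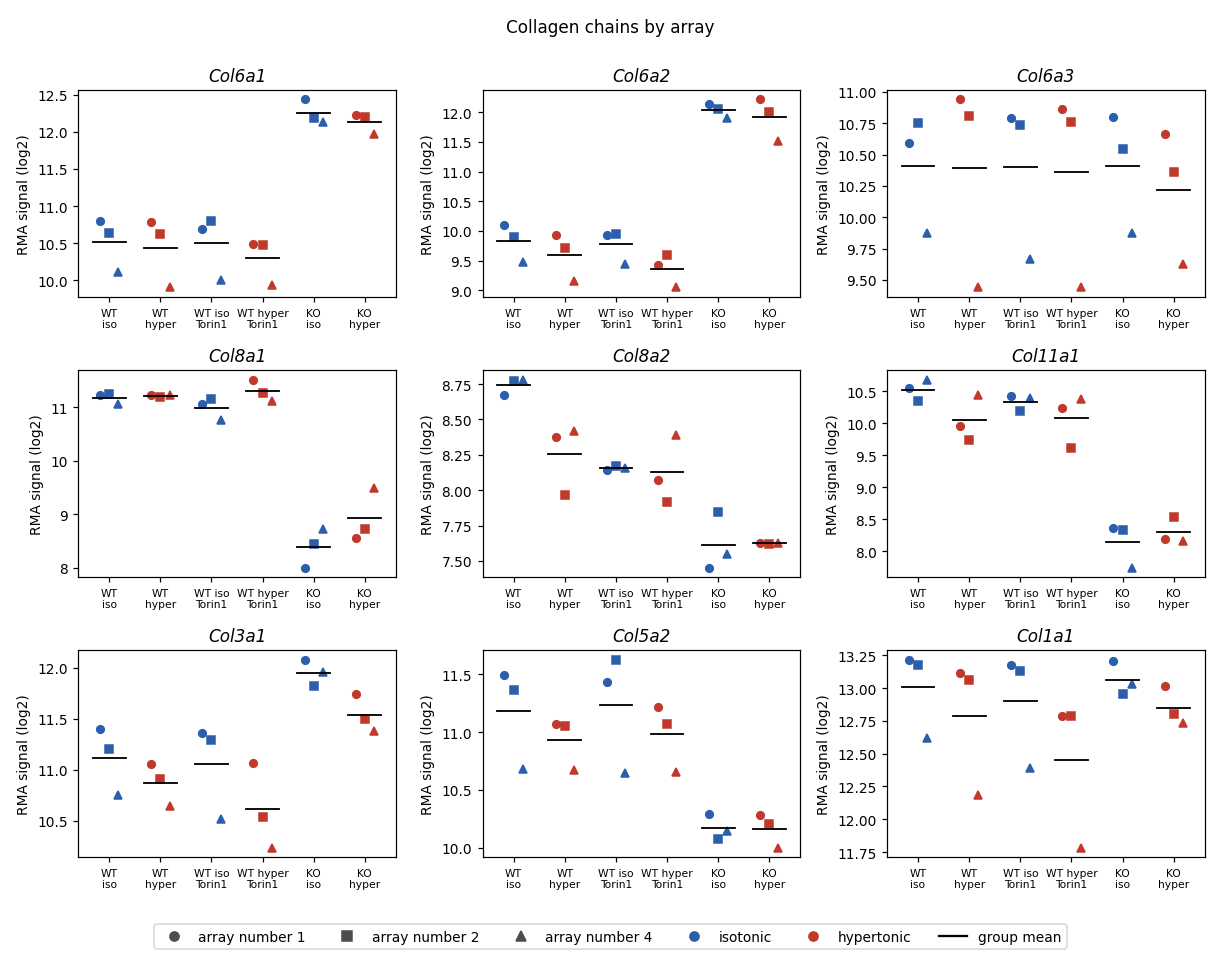
Level of 9 collagen chains (y axis, RMA signal on the log2 scale, a separate range for each gene) on each of the 18 arrays by group, with circles, squares and triangles for arrays 1, 2 and 4, blue for isotonic and red for hypertonic medium and a bar for the group mean. Col6a1, Col6a2, Col8a1 and Col11a1 separate the KO groups from all 4 WT groups, Col1a1 and Col6a3 do not, and array 4 lies lowest in all 6 groups for Col6a3.

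Single members of the remaining collagen classes passed. Col20a1, one of 9 fibril-associated collagens, read 7.01, 6.95 and 6.97 in WT and 7.67, 7.85 and 7.96 in KO isotonic cells, and 7.14, 7.22 and 6.88 against 7.53, 7.64 and 7.59 in hypertonic medium. The groups did not overlap, and it was higher in KO cells in both media (0.85 ± 0.13, adjusted p = 0.000182, and 0.51 ± 0.13, adjusted p = 0.00608). Col23a1, a transmembrane collagen, read 8.04, 7.98 and 8.74 in WT and 9.01, 9.02 and 9.28 in KO isotonic cells, again apart, and was higher there (0.85 ± 0.26, adjusted p = 0.0369), a call lost without WT isotonic array 1 or 2 or KO isotonic array 1, 2 or 4 (adjusted p 0.0717 to 0.146). Col18a1, a basement membrane collagen whose C-terminal fragment is endostatin, read 8.82, 8.70 and 7.99 in WT and 7.76, 7.56 and 7.34 in KO hypertonic cells. Every KO array lay below every WT array, and the difference of -0.95 ± 0.24 passed (adjusted p = 0.00598). In isotonic medium it was -0.65 ± 0.24 (adjusted p = 0.0827), which did not pass. The other multiplexin, Col15a1, read 8.83, 8.57 and 6.67 in KO isotonic cells and 8.52, 8.42 and 6.92 in KO hypertonic cells, against 6.52 to 6.98 on all WT arrays. KO array 4 thus lay within the WT range in both media, and neither difference passed (1.30 ± 0.45 and 1.14 ± 0.45, adjusted p = 0.0689 and 0.0663).

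Of the enzymes and chaperones, 3 of 15 were called between the lines in isotonic medium and 2 of 15 in hypertonic medium, all higher in KO cells. That is 20% and 13.3% of them, against 14.6% and 31.9% of all genes. Loxl3, a lysyl oxidase, read 9.44, 9.45 and 9.71 in WT and 10.17, 10.15 and 10.22 in KO isotonic cells. In hypertonic medium it read 9.02, 8.74 and 8.89 against 9.70, 9.74 and 9.67. The KO arrays lay above and close together, with differences of 0.65 ± 0.11 (adjusted p = 0.000581) and 0.82 ± 0.11 (adjusted p = 4.06e-05). Lox, the founding member of that family, read 13.42 to 13.69 on all 18 arrays and did not pass. Crtap, which joins prolyl 3-hydroxylase in a complex with a cyclophilin, read 11.80, 12.03 and 12.34 in WT and 12.52, 12.52 and 12.51 in KO isotonic cells. The differences were 0.46 ± 0.13 (adjusted p = 0.0276) and, in hypertonic medium, 0.43 ± 0.13 (adjusted p = 0.0203). The isotonic call was lost without WT isotonic array 1 or 2 or KO isotonic array 1, 2 or 4 (adjusted p 0.0617 to 0.136) or in a fit of only these groups (0.0878), and the hypertonic call without WT hypertonic array 2 or KO hypertonic array 1 or 4 (0.0528 to 0.0958). Pcolce was higher in isotonic medium by 0.31 ± 0.10 (adjusted p = 0.0491), with 12.98, 13.10 and 13.20 in WT and 13.48, 13.39 and 13.34 in KO cells. That call was lost without WT isotonic array 1 or 2 or KO isotonic array 1, 2 or 4 (0.0685 to 0.174), with no filter (0.0547), a second quantile normalization (0.0755), centred arrays (0.0512) and a fit of only these groups (0.0919).

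The other 12 enzymes and chaperones did not pass between the lines in isotonic medium. P4hb differed by 0.13 ± 0.11 in isotonic and 0.14 ± 0.11 in hypertonic medium, P4ha1 by -0.20 ± 0.20 and -0.11 ± 0.20, and Serpinh1 by 0.05 ± 0.14 and 0.04 ± 0.14. P4hb read 12.45, 12.78 and 12.69 in WT and 12.81, 12.82 and 12.68 in KO isotonic cells, P4ha1 11.33, 11.87 and 12.21 against 11.37, 11.44 and 12.00, and Serpinh1 11.49, 12.06 and 11.73 against 12.03, 11.79 and 11.60. The lines overlapped for all of these. Plod1 and Plod3 were within 0.1 of 0 in both media. Plod1 read 11.28, 11.22 and 10.77 against 11.30, 10.99 and 10.83, and Loxl1 12.59, 12.46 and 12.12 against 12.29, 12.11 and 12.38, both with overlap. Loxl1 differed by -0.13 ± 0.14 and 0.04 ± 0.14. P4ha3 had -0.27 ± 0.14 in isotonic medium and 0.13 ± 0.14 in hypertonic medium. Larger values that did not pass were seen for Plod2, which hydroxylates the telopeptide lysines (-0.73 ± 0.30 and -0.58 ± 0.30), for Loxl4 (-0.82 ± 0.31 and -0.64 ± 0.31) and for P4ha2 (0.47 ± 0.46 and 0.75 ± 0.46). With the mean of its probe sets Loxl4 passed in isotonic medium (-0.94, adjusted p = 0.0241).

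A fit with the array number as a replicate block, which gives each number the same effect in both lines, widened the calls between the lines. With that block 24 members were called in isotonic medium (12 higher, 12 lower), where 10.7% of all genes were called higher and 10.2% lower. In hypertonic medium 21 were called (14 higher, 7 lower), which is 35.6% of the members against 39.1% of all genes (17.2% higher, 22% lower). All 15 and 12 calls of the fit without the block were among them. Col4a1 and Col4a2 then passed as lower in both media (adjusted p = 0.0105 and 0.00128 isotonic, 0.00435 and 0.000778 hypertonic), and Col15a1 as higher in both (0.0169 and 0.0202). In isotonic medium Plod2 (0.0469), Loxl4 (0.0357), Col7a1 (0.0138), Col18a1 (0.000526), Col19a1 (0.00805) and Col4a4 (0.0239) passed as lower. For Plod2 and Loxl4 the shared effect does not hold. Array 4 minus the mean of arrays 1 and 2 averaged -0.79 and -0.80 in WT groups but 0.28 and 0.35 in KO groups. For Col4a1 and Col4a2 it was negative in both lines (-0.89 and -0.96 in WT, -0.69 and -0.68 in KO groups). In hypertonic medium P4ha2 (0.00835), Col14a1 (0.0303), Col16a1 (0.0425), Col23a1 (0.00514), Col27a1 (0.0497) and Col6a5 (0.0311) passed as higher.

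Leaving out all number 4 arrays, an alternative chosen after seeing the data, also changed calls between the lines. It called 29 members in isotonic medium (13 higher, 16 lower; 49.2% of the members against 24.2% of all genes) and 26 in hypertonic medium (12 higher, 14 lower; 44.1% against 40.2%). Plod2 was then lower in both media (-1.06, adjusted p = 7.28e-06, and -0.82, adjusted p = 5.70e-05), as was Loxl4 (-1.20, adjusted p = 2.40e-06, and -0.99, adjusted p = 1.24e-05), and P4ha2 was higher (0.72, adjusted p = 0.000995, and 0.89, adjusted p = 0.000108). In isotonic medium Loxl1 (-0.33, adjusted p = 0.0418) and P4ha3 (-0.47, adjusted p = 0.0476) passed as lower. Col4a1 (-0.43 and -0.50, adjusted p = 0.0120 and 0.00279) and Col4a2 (-0.67 and -0.69, adjusted p = 0.00172 and 0.000863) passed as lower in both media.

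The label conflict of KO isotonic array 1 bears on all isotonic KO values. Without that array 9 of the 59 members (15.3%) were called in isotonic medium, against 11% of all genes. Col8a1 was then at -2.60, Col11a1 at -2.49, Col6a2 at 2.15 and Col6a1 at 1.65 (adjusted p 1.32e-06, 6.47e-06, 5.64e-05 and 0.00127). Without WT isotonic array 2, whose label is not in doubt, 9 were called as well, against 11.3% of all genes. Counted as a WT array, KO isotonic array 1 left 0 of 59 members and 0% of all genes called, with Col8a1 at -1.80 (adjusted p = 0.216) and Col6a2 at 1.57 (adjusted p = 0.176). The hypertonic changes of Col8a2 in WT cells (-0.17, adjusted p = 0.773) and of Loxl3 in KO cells (-0.48, adjusted p = 0.0719) then did not pass either. Values from the hypertonic comparison of the lines do not use that array in their means.

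Hypertonic medium changed Loxl3, P4ha3, Crtap and Plod3 among the enzymes and Col8a2 among the collagens in at least 1 comparison. In WT cells 3 members fell (Loxl3, P4ha3 and Col8a2), none rose and 56 did not pass, where 3.94% of all genes were called higher and 4.3% lower. In WT cells with Torin1 3 members fell (P4ha3, Loxl3 and Crtap), none rose and 56 did not pass, where 1.65% were called higher and 1.72% lower. In KO cells Plod3 rose, Loxl3 fell and 57 did not pass, where 12.9% of all genes were called higher and 17.2% lower. The members' medians were -0.04, -0.07 and 0.00, against 0.02 in each comparison over all genes. Negative changes were seen for 38, 39 and 30 of the 59 members and for 7133, 7306 and 7370 of all 15711 genes. These comparisons use separate arrays. With arrays centred on their medians, all changes in KO cells moved up by 0.17, and the share of higher genes among all calls went from 42.9% to 70.4%. In that fit 6 members (10.2%) were called higher and 0 lower, against 27.5% and 11.6% of all genes. There 19 members that were not called changed sign. Leaving out WT isotonic array 1 or WT hypertonic array 2 left 1 member called in WT cells, and in KO cells 1 was called without KO isotonic array 2 and 4 without KO isotonic array 4. Those 4 fits called 4.67%, 4.04%, 25.4% and 26.6% of all genes. Among markers of other cells, Sox9 (1.45 ± 0.36) and the leukocyte marker Itgam (0.83 ± 0.22) rose in WT cells, Csf1r rose with Torin1 (1.04 ± 0.24), and in KO cells Itgam (1.18 ± 0.22) and the endothelial marker Pecam1 (0.47 ± 0.13) rose and Cdh1 (-0.86 ± 0.22) and the osteoblast marker Sp7 (-1.30 ± 0.21) fell. The fibroblast marker Pdgfrb fell in KO cells (-0.25 ± 0.08). The part of these markers in the members' changes was not tested.

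Loxl3 was the member called in all 3 hypertonic comparisons. In WT cells it went from 9.44, 9.45 and 9.71 to 9.02, 8.74 and 8.89, and with Torin1 from 9.40, 9.43 and 9.55 to 8.87, 8.50 and 8.85. In KO cells it went from 10.17, 10.15 and 10.22 to 9.70, 9.74 and 9.67. In each case every hypertonic array lay below every isotonic one. The falls were 1.57-fold (-0.65 ± 0.11, adjusted p = 0.00269), 1.65-fold (-0.72 ± 0.11, adjusted p = 0.00306) and 1.39-fold (-0.47 ± 0.11, adjusted p = 0.00364). No omission of 1 array ended these calls, but centring the arrays gave -0.30 in KO cells (adjusted p = 0.0503). Fits of only the compared groups gave adjusted p = 0.0547 in WT cells and 0.0704 with Torin1.

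P4ha3, one of the catalytic prolyl 4-hydroxylase subunits, fell in WT cells both without and with Torin1. Its WT values went from 11.82, 11.66 and 11.57 to 11.24, 10.94 and 10.94, a 1.56-fold fall (-0.65 ± 0.14, adjusted p = 0.0129). With Torin1 it went from 11.77, 11.34 and 11.59 to 10.30, 10.00 and 10.01, a 2.75-fold fall (-1.46 ± 0.14, adjusted p = 0.000369). The isotonic and hypertonic arrays were apart in both. In KO cells it went from 11.26, 11.29 and 11.71 to 11.07, 11.29 and 11.16, which overlapped and did not pass (-0.24 ± 0.14, 95% interval -0.55 to 0.06). The call without Torin1 was lost without WT isotonic array 1 (adjusted p = 0.0582) or WT hypertonic array 2 (0.0610), and in a fit of only these groups (0.0587).

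The sister subunits did not pass. P4ha1 changed by -0.01 ± 0.20 in WT cells, -0.06 ± 0.20 with Torin1 and 0.08 ± 0.20 in KO cells. P4ha2 read 9.71, 10.13 and 11.52 in WT isotonic and 9.72, 9.54 and 10.41 in WT hypertonic cells, with array 4 highest in both, and its changes were -0.56 ± 0.46, -0.48 ± 0.46 and -0.29 ± 0.46. P4hb stayed within 0.1 of 0 in all 3 comparisons.

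**Figure D3:**
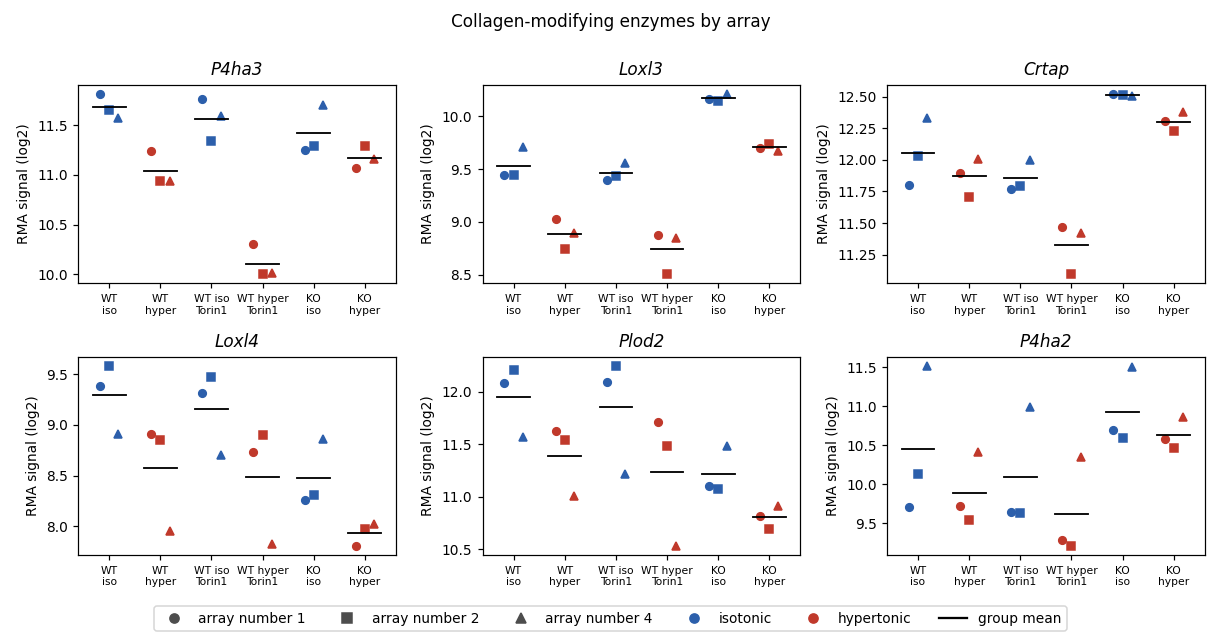
Level of 6 modifying enzymes (y axis, RMA signal on the log2 scale, a separate range for each gene) on each of the 18 arrays by group, with circles, squares and triangles for arrays 1, 2 and 4, blue for isotonic and red for hypertonic medium and a bar for the group mean. Loxl3 lies lower in hypertonic medium in each pair of groups, P4ha3 is lowest in WT hypertonic cells with Torin1 (10.00 to 10.30), and array 4 of P4ha2 lies highest in every group.

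Further enzymes were called in 1 comparison each. Crtap went from 11.77, 11.80 and 12.00 to 11.47, 11.09 and 11.42 with Torin1 (-0.52 ± 0.13, adjusted p = 0.0407), a call lost without WT isotonic Torin1 array 1, 2 or 4 or WT hypertonic Torin1 array 2 or 4 (adjusted p 0.0510 to 0.205) and in a fit of only these groups (0.134). Its change was -0.18 ± 0.13 in WT cells without Torin1 and -0.21 ± 0.13 in KO cells, neither of which passed. Plod3, a lysyl hydroxylase that also adds sugars to hydroxylysine, went from 11.89, 11.78 and 11.95 to 12.17, 12.06 and 12.17 in KO cells. That rise of 0.26 ± 0.07 passed (adjusted p = 0.0115) and was lost without KO isotonic array 2 (0.0627) or in a fit of only the KO groups (0.0658), and its changes of 0.16 ± 0.07 and 0.15 ± 0.07 in WT cells without and with Torin1 did not pass. Among the collagens only Col8a2 was called in any hypertonic comparison, from 8.67, 8.77 and 8.78 to 8.38, 7.97 and 8.42 in WT cells (-0.49 ± 0.13, adjusted p = 0.0356). That call was lost without WT isotonic array 1, 2 or 4 or WT hypertonic array 1 or 2 (adjusted p 0.0629 to 0.171), with centred arrays (0.0549) and in a fit of only these groups (0.120).

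Several enzymes were lower in hypertonic medium by sizes that did not pass. Loxl4 read 9.38, 9.59 and 8.91 in WT isotonic and 8.91, 8.85 and 7.95 in WT hypertonic cells, and its changes were -0.72 ± 0.31, -0.67 ± 0.31 and -0.54 ± 0.31 in WT cells, WT cells with Torin1 and KO cells. Plod2 read 12.08, 12.21 and 11.57 and then 11.62, 11.54 and 11.01, with changes of -0.56 ± 0.30, -0.61 ± 0.30 and -0.41 ± 0.30. For both genes array 4 was lowest in every WT group, so that isotonic array 4 lay within or next to the hypertonic range. With all number 4 arrays left out Loxl4 passed in all 3 comparisons (-0.60, -0.57 and -0.39, adjusted p = 0.00272, 0.00712 and 0.0154), as did Plod2 (-0.57, -0.57 and -0.33, adjusted p = 0.00364, 0.00649 and 0.0337). Of all genes 21.2%, 9.88% and 37.2% were called in that setting, and 18.6%, 11.9% and 11.9% of the members. The prolyl 3-hydroxylase Leprel1 had positive changes of 0.57 ± 0.60, 0.37 ± 0.60 and 0.66 ± 0.60, well within its spread.

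The fibrillar chains had small negative changes in WT cells. Col1a1 went from 13.22, 13.18 and 12.62 to 13.12, 13.06 and 12.19, and with Torin1 from 13.18, 13.13 and 12.39 to 12.79, 12.79 and 11.78. Its changes were -0.22 ± 0.29, -0.45 ± 0.29 and, in KO cells, -0.21 ± 0.29, none of which passed. Of the 11 fibrillar chains 10 had a negative change in WT cells, 8 with Torin1 and 7 in KO cells, with medians of -0.22, -0.26 and -0.10, and none was called. Of all 15711 genes 7133, 7306 and 7370 had a negative change, and 8.24%, 3.37% and 30.1% were called. Serpinh1 and Pcolce changed by -0.01 each in WT cells.

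The main enzymes read as follows around hypertonic medium. P4ha1 went from 11.33, 11.87 and 12.21 to 11.81, 11.61 and 11.97 in WT cells and from 11.37, 11.44 and 12.00 to 11.63, 11.54 and 11.89 in KO cells. P4hb went from 12.45, 12.78 and 12.69 to 12.84, 12.78 and 12.55 and from 12.81, 12.82 and 12.68 to 12.94, 12.86 and 12.81. For both subunits the media overlapped in WT cells. Plod1 went from 11.28, 11.22 and 10.77 to 11.11, 11.05 and 10.72 in WT cells and from 11.30, 10.99 and 10.83 to 11.01, 10.95 and 10.70 in KO cells, and Loxl1 from 12.59, 12.46 and 12.12 to 12.34, 12.25 and 12.02 and from 12.29, 12.11 and 12.38 to 12.32, 12.24 and 12.17. Those ranges overlapped too. With centred arrays Lox (0.24, adjusted p = 0.0316) and P4hb (0.27, adjusted p = 0.0459) passed as higher in KO hypertonic cells.

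With the replicate block a few more members passed in the hypertonic comparisons, as did more of all genes (15% in WT cells, 7.86% with Torin1 and 36.3% in KO cells), against 4 members, or 6.78%, in each. Col10a1, the collagen of hypertrophic cartilage, rose in WT cells (0.53 ± 0.15, adjusted p = 0.0250 with the block, 0.572 without) and in KO cells (0.81 ± 0.15, adjusted p = 0.000558 with the block, 0.217 without). Its arrays went from 7.66, 7.57 and 8.67 to 8.09, 8.22 and 9.19 in WT cells, higher in each pair of same-numbered arrays, and from 7.52, 7.78 and 8.22 to 8.07, 8.61 and 9.26 in KO cells. Col3a1 fell in KO cells with the block (-0.41 ± 0.14, adjusted p = 0.0312), which brought the members called there from 2 to 4. Col6a2 fell in WT cells with Torin1 (-0.42 ± 0.10, adjusted p = 0.0243).

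**Figure D4:**
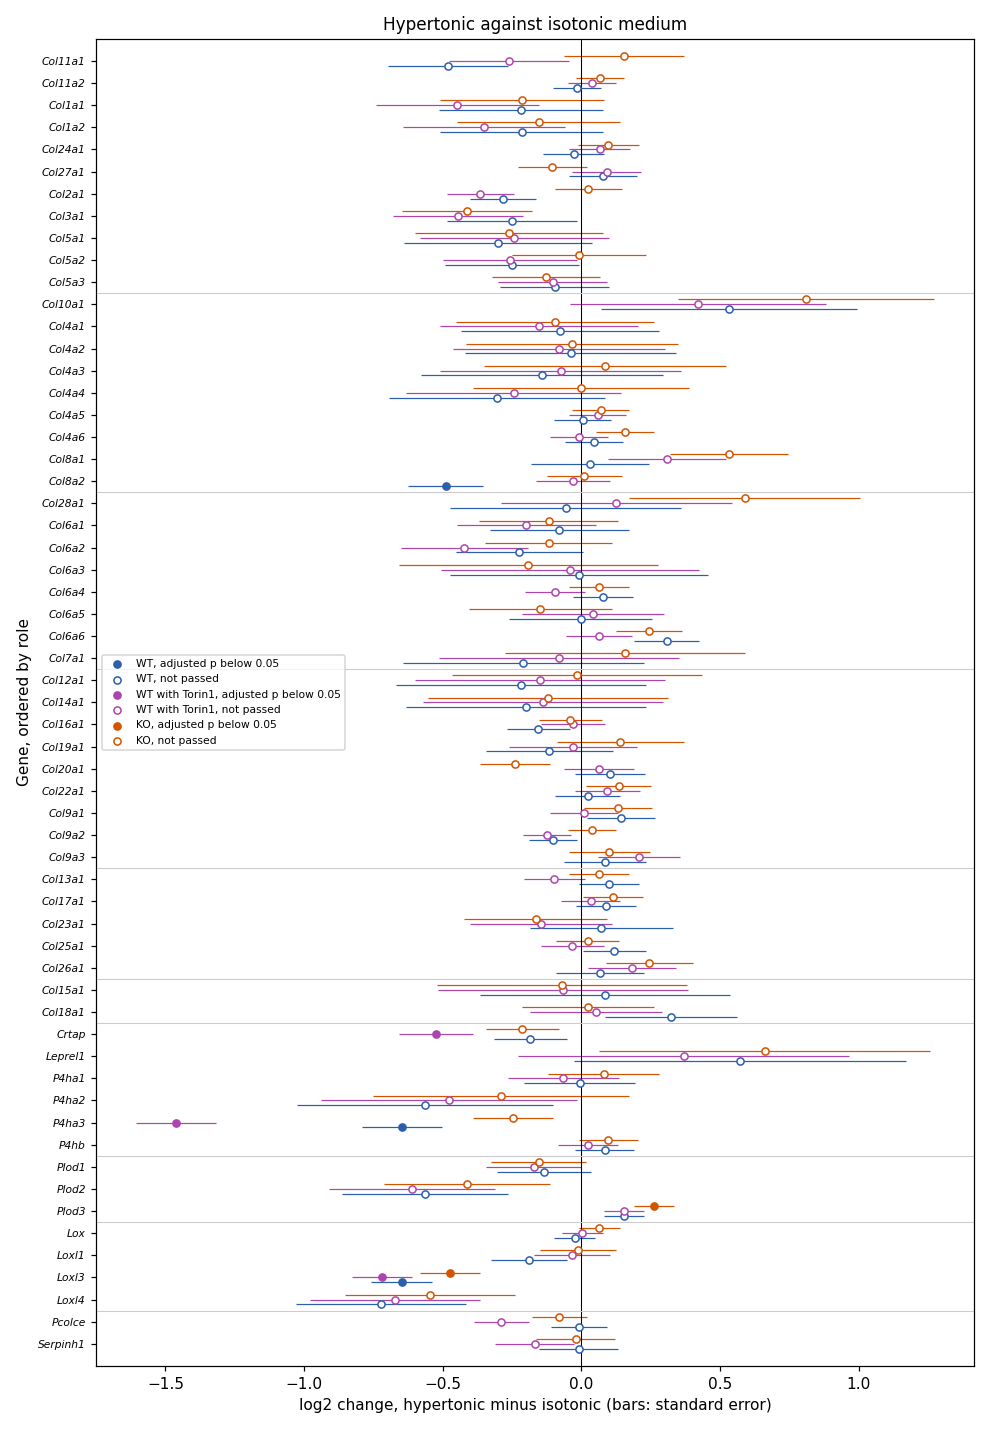
Change of each of the 59 members with hypertonic medium (x axis, log2, hypertonic minus isotonic) in WT cells (blue), WT cells with Torin1 (purple) and KO cells (orange), with bars of 1 standard error and filled points at an adjusted p below 0.05. Filled points are those of Loxl3 in all 3, P4ha3 in WT cells without and with Torin1, Col8a2 in WT cells, Crtap with Torin1 and Plod3 in KO cells.

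Whether the hypertonic change differed between KO and WT cells was tested as a difference of changes. None of the 59 members passed, although 3.35% of all genes were called with a more positive and 6.15% with a more negative change in KO cells. At an unadjusted p below 0.05 there was 1 member, Col8a2 (0.50 ± 0.19, adjusted p = 0.121), against 3498 of all genes. For Loxl3 the difference was 0.18 ± 0.15 with a 95% interval of -0.15 to 0.50, and for P4ha3 it was 0.40 ± 0.20 with an interval of -0.03 to 0.83. Col11a1 had the larger value of 0.63 ± 0.31 (interval -0.02 to 1.29), which did not pass. With centred arrays the share of more positive genes among all calls went from 35.3% to 67%, and 0 members were called there too.

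Torin1 by itself changed none of the members in isotonic medium, where 0% of all genes were called in either direction. At an unadjusted p below 0.05 there were 3 members and 470 genes, and no other setting of limma tried called a member. Col8a2 read 8.67, 8.77 and 8.78 without and 8.14, 8.17 and 8.15 with Torin1, groups that were clearly apart, and its change of -0.59 ± 0.13 had an adjusted p of 1.00 over all genes. P4ha1 changed by -0.46 ± 0.20 and P4hb by -0.26 ± 0.11, neither of which passed. Of the 15 enzymes and chaperones 14 had a negative change, with a median of -0.12. So did 16 of the 44 collagens and 7346 of all 15711 genes, with a median of 0.01 over all genes. With centred arrays 7 of the 59 members changed sign.

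In hypertonic medium 1 member fell with Torin1, where 0.0573% of all genes were called higher and 0.0573% lower. P4ha3 read 11.24, 10.94 and 10.94 without and 10.30, 10.00 and 10.01 with Torin1, a 1.91-fold fall with no overlap (-0.93 ± 0.14, adjusted p = 0.036). The call was lost without WT hypertonic array 1 or 2 or WT hypertonic Torin1 array 1, 2 or 4 (adjusted p 0.0548 to 0.179), which leaves 0 members called, and in a fit of only these groups (0.215). Of all genes 0% to 0.0764% were called in those fits. With the replicate block Crtap (-0.54 ± 0.11, adjusted p = 0.0338) and Pcolce (-0.46 ± 0.10, adjusted p = 0.0354) fell as well, which made 3 members called, where 0.751% of all genes were higher and 0.649% lower; their adjusted p without the block was 0.107 and 0.0943. Crtap read 11.90, 11.71 and 12.01 without and 11.47, 11.09 and 11.42 with Torin1, and Pcolce 13.07, 12.97 and 13.21 without and 12.62, 12.48 and 12.78 with it. Both sets were apart. Other enzymes with non-overlapping arrays that did not pass were P4ha1 (-0.51 ± 0.20), Serpinh1 (-0.45 ± 0.14) and P4hb (-0.32 ± 0.11), whereas Col1a1 changed by -0.34 ± 0.29 and Lox by 0.01 ± 0.07.

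The difference that Torin1 made to the hypertonic change was tested as well, and 0% of all genes were called in either direction, with no member among them. At an unadjusted p below 0.05 there were 2 members and 317 genes. The value for P4ha3 was -0.82 ± 0.20 with a 95% interval of -1.25 to -0.38 and an adjusted p of 1.00, so its larger fall with Torin1 did not pass as a difference. For Loxl3 it was -0.07 ± 0.15 (interval -0.40 to 0.26) and for Crtap -0.34 ± 0.19 (interval -0.74 to 0.06). The hypertonic comparisons without and with Torin1 use separate arrays, but the Torin1 and hypertonic comparisons share the WT hypertonic arrays.

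Within groups, many members followed the array number. Array 4 was the lowest of the 3 arrays in all 4 WT groups for 18 of 59 members (30.5%) and the highest in all 4 for 10 (16.9%), against 14.4% and 11.1% of all genes tested. In the 2 KO groups it was lowest in both for 20 members (33.9%) and highest in both for 9 (15.3%), against 29.1% and 15.2% of all genes. This description was made after seeing the values and carries no test. Array 4 minus the mean of arrays 1 and 2, averaged over the WT groups, was -1.24 for Col7a1, -1.22 for Col4a3 and -1.17 for Col6a3, and -0.81 for Col1a1. At the other end it was 1.32 for Leprel1, 1.21 for P4ha2, 1.18 for Col10a1 and 1.15 for Col12a1.

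The lines did not share that pattern in every gene. In the KO groups the same value was -1.45 for Leprel1 and -0.63 for Col12a1, against the positive values in WT cells, and 0.04 for Col7a1. Col15a1 (-1.79) and Col28a1 (1.63) had the largest values in KO cells and small ones in WT cells (-0.14 and -0.10). Leprel1 read 8.91, 8.20 and 9.82 in WT isotonic cells and 8.95, 9.10 and 7.29 in KO isotonic cells. The meaning of the array numbers is unknown here, and the part of this spread in the calls that did not pass was not tested beyond the fits with the replicate block and without the number 4 arrays.

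**Figure D5:**
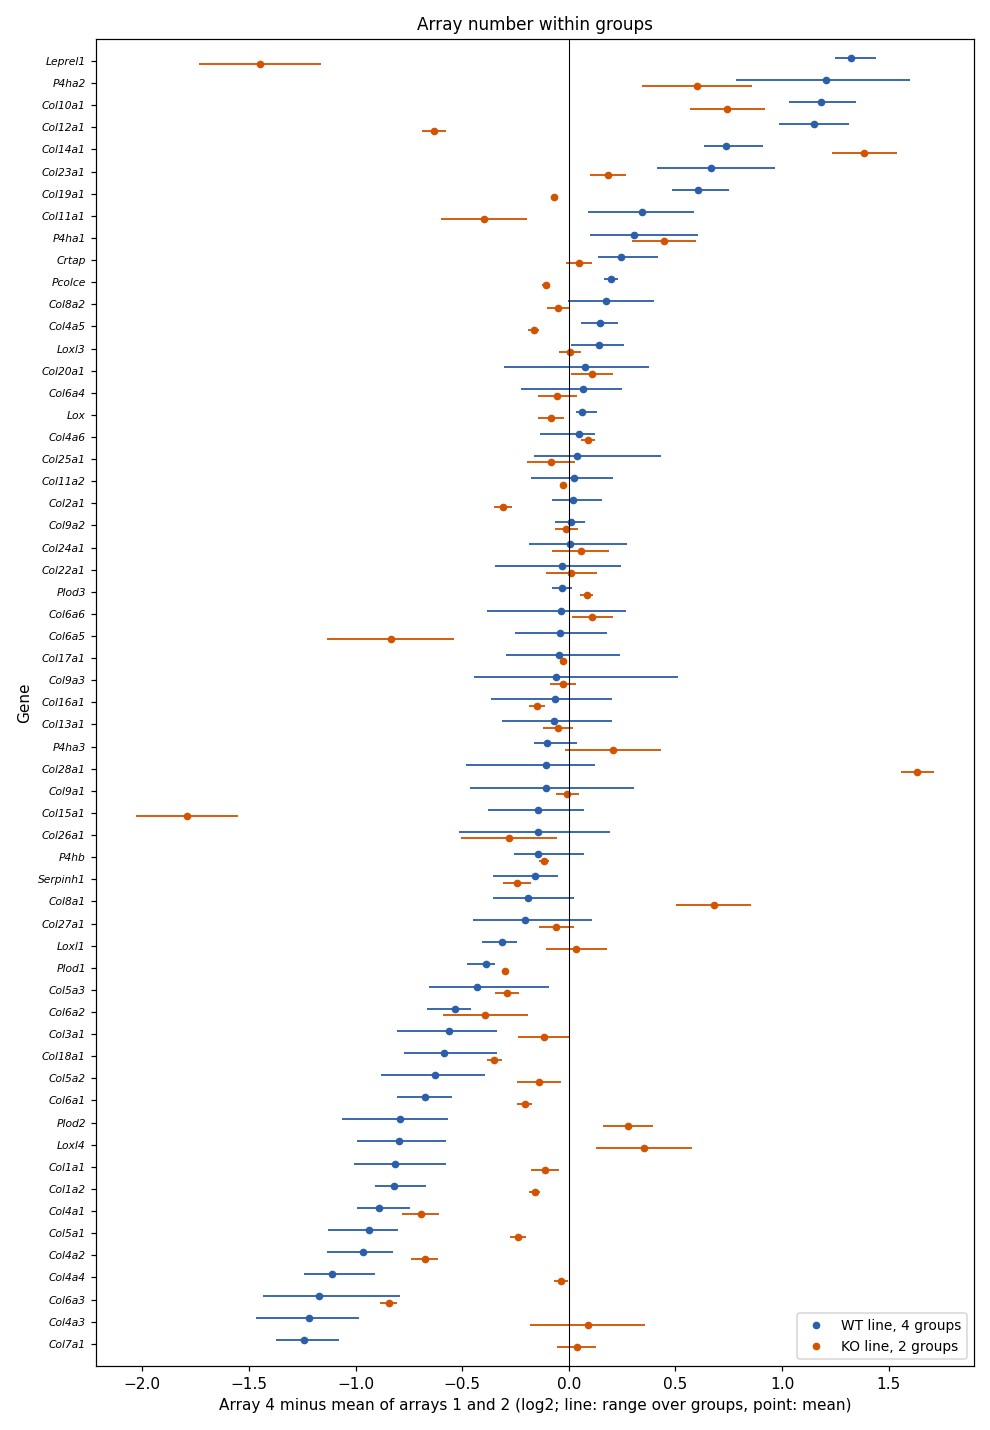
Array 4 minus the mean of arrays 1 and 2 of the same group (x axis, log2) for the 59 members, as the mean (point) and range (line) over the 4 WT groups (blue) and the 2 KO groups (orange), sorted by the WT mean. Leprel1 and Col12a1 lie on opposite sides of 0 in the 2 lines, and Col1a1, Col4a2, Col6a3 and Col7a1 lie well below 0 in WT cells.

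Other genes of the pathway were taken from a list of 63, in which Ctage5 and Mia2 count as 1 gene. With Ctage5 and Mia2 counted apart, 61 were measured and 56 tested. Between the lines 4 were higher and 12 lower in KO cells in isotonic medium, and 11 higher and 11 lower in hypertonic medium, where 14.6% and 31.9% of all genes were called. TGF-beta is the best known inducer of collagen genes, and of 15 genes of its pathway tested 1 was higher and 6 lower in isotonic medium and 2 higher and 4 lower in hypertonic medium. The receptor Tgfbr2 was higher in both (1.02 ± 0.13 and 1.22 ± 0.13). The latency protein Ltbp1 (-1.92 ± 0.32 and -1.63 ± 0.32), its family member Ltbp2 (-2.61 ± 0.81 and -2.32 ± 0.81) and the target Ccn2 (-1.65 ± 0.26 and -1.25 ± 0.26) were lower in both. The inhibitor Skil, itself a TGF-beta target, was lower too (-1.68 ± 0.12 and -0.77 ± 0.12).

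Of 11 genes of folding and glycosylation tested, 2 were higher and 2 lower in KO cells in isotonic medium and 3 higher and 2 lower in hypertonic medium. Of 12 genes of export and propeptide removal, 2 were lower in isotonic medium and 4 were higher and 3 lower in hypertonic medium. Among all genes, 14.6% were called in isotonic and 31.9% in hypertonic medium. P3h1, the prolyl 3-hydroxylase that binds Crtap, was lower (-0.47 ± 0.14 and -0.41 ± 0.14), while P3h3 was higher (0.43 ± 0.11 and 0.39 ± 0.11), as was Fkbp9 (0.79 ± 0.12 and 0.80 ± 0.12), and Fkbp7 was higher in hypertonic medium (0.62 ± 0.20). Colgalt1, which adds galactose to hydroxylysine, was lower (-0.57 ± 0.12 and -0.46 ± 0.12). Tll1 (-3.53 ± 0.41 and -3.42 ± 0.41) and Bmp1 (-0.47 ± 0.13 and -0.36 ± 0.13), proteinases that remove the C-terminal propeptide and that Pcolce assists, were lower in both media. In hypertonic medium Sec24d (0.99 ± 0.19), Mia2 (0.81 ± 0.17), Ctage5 (0.33 ± 0.10) and Adamts3 (0.44 ± 0.11), which removes N-terminal propeptides, were higher, and Pxdn (-0.44 ± 0.15) was lower. Of the collagen receptors, Itgb1 was lower in isotonic (-0.31 ± 0.10) and Itga1 higher in hypertonic medium (0.86 ± 0.29), out of 7 tested.

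With hypertonic medium 4 of these 56 genes rose and 2 fell in WT cells, 3 rose and 1 fell with Torin1, and 6 rose and 2 fell in KO cells, where 8.24%, 3.37% and 30.1% of all genes were called. Mia2, which takes part in the export of large cargo such as procollagen, rose in all 3 (1.46 ± 0.17, 0.79 ± 0.17 and 2.04 ± 0.17), and so did the TGF-beta signal carrier Smad3 (0.49 ± 0.14, 0.56 ± 0.14 and 0.42 ± 0.14). Ctage5, counted here as a gene of its own, shares a locus with Mia2, so their signals may not be separate. Ctsk, a collagen-degrading cathepsin, rose in WT (0.65 ± 0.15) and KO cells (1.40 ± 0.15) without Torin1. The ligand Tgfb3 (-0.91 ± 0.16) and Sec24d (-0.64 ± 0.19), a coat protein needed for procollagen export, fell in WT cells. Torin1 alone called 0 of the 56 in either medium, as against 0% and 0.0573% of all genes in each direction.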

How the data were processed

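The authors deposited a table of log2 signals. They were made by RMA in R, and version 2.11.1 is the one named, per the submitters' processing notes. No genome build was needed to read them. The table holds 34760 probe sets on 18 Affymetrix arrays, of which 21640 name 1 gene, 1321 several and 11799 none in GEO's platform annotation, and 954 genes have more than 1 probe set. The values were used as deposited, with the brightest probe set per gene. Precision is limited by the number of arrays, 3 a group.

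Genes whose highest group mean exceeded the 30th percentile of all values (5.86) were tested with limma 3.58.1 in R 4.3.3, in 1 model of 6 group means with 12 residual degrees of freedom, and p-values were adjusted by Benjamini-Hochberg within each of 9 contrasts over 15711 genes. Intervals are 95% and come from the same fit. The script was tested on simulated data. Members and lists were chosen with earlier results of these data known. By the rule for naming, a member was described on the arrays of a comparison where it passed and was among the 4 largest changes of its role in a direction, or was a main chain or a P4h, Plod or Lox gene; for main chains and enzymes that did not pass, array values are given for some comparisons and the change alone for the others.

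Same-numbered arrays deviated together: in every contrast of 2 groups, and in the difference that Torin1 made, each pair's correlation of deviations was over 0.1 (lowest 0.156). The lowest for the difference between the lines was 0.0945, for a pair of arrays from different lines. The pairing thus comes from the data and not from the labels, and the fit with the replicate block is an alternative, given where it changed a call. Other alternatives were no filter, a stricter filter at percentile 50, averaging the probe sets of a gene, a second quantile normalization, centring arrays on their medians, a trended robust prior, only the groups compared, KO isotonic array 1 counted as WT, and each array left out. Leaving out all number 4 arrays was added after seeing the data. Promoter sequences are RefSeq's, for 45 of 59 members.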

Additional observations from a re-analysis of the deposited data

Results flagged for a closer look

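Among the other genes of the pathway tested, 3 of 56 had a hypertonic change that differed between KO and WT cells by the test of the difference itself (limma, adjusted p over all genes tested), and none did so with Torin1. Timp3, an inhibitor of matrix metalloproteinases, changed by 0.82 less in KO cells (-0.82 ± 0.18, adjusted p = 0.00977), with a fall of -0.52 ± 0.13 in KO cells. The cathepsin Ctsk changed by 0.75 ± 0.21 more in KO cells (adjusted p = 0.0386), and Skil, an inhibitor of TGF-beta signalling, by 0.91 ± 0.17 more (adjusted p = 0.00495). Of all genes 9.5% were called in that test, and no member met it.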

How the results depend on the processing

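Single results were tallied only where a member passed in the main fit or was a main chain, Serpinh1 or a P4h, Plod or Lox gene. Of these, 3674 stayed on their side of the threshold under an alternative, 99 no longer passed and 42 passed newly. New passes of other members, such as Col10a1 and Col15a1 with the replicate block, are not in that tally. Among the tallied results that passed in either fit, 0 reversed. The sign of results that passed in neither fit was not compared. Centring changed the sign of 19 members that were not called for hypertonic medium in KO cells. Fitting only the groups compared gave 0 members called in place of 3 for hypertonic medium in WT cells, 1 in place of 3 with Torin1, and 0 in place of 1 for Torin1 in hypertonic medium. Of all genes those fits called 1.75%, 0.15% and 0%, in place of 8.24%, 3.37% and 0.115%. With the replicate block 4 members were called in place of 2 for hypertonic medium in KO cells, 3 in place of 1 for Torin1 in hypertonic medium, 24 in place of 15 between the lines in isotonic and 21 in place of 12 in hypertonic medium, where the block called 36.3%, 1.4%, 20.9% and 39.1% of all genes. For the difference of the hypertonic change between the lines, the block left 0 called. Its same-numbered arrays deviated together within each line (r of 0.361 to 0.751 in WT and 0.494 to 0.719 in KO cells), but more weakly across lines (lowest 0.0945). A second quantile normalization gave 4 members and centring 6 in place of 2 for hypertonic medium in KO cells, and centring gave 27 in place of 12 between the lines in hypertonic medium. In these 3 cases 31.1%, 39% and 45% of all genes were called. KO isotonic array 1 counted as WT gave 1 in place of 2 for hypertonic medium in KO cells and 0 in place of 15 between the lines. Of all genes 21.9% and 0% were called there. Without the number 4 arrays the counts were 11, 7 and 7 for hypertonic medium in WT cells, with Torin1 and in KO cells, 3 for Torin1 in hypertonic medium, and 29 and 26 between the lines. In the same order 21.2%, 9.88%, 37.2%, 4.75%, 24.2% and 40.2% of all genes were called. Leaving out 1 array gave 1 to 4, 2 to 3 and 1 to 4 members for the 3 hypertonic comparisons, 0 to 1 for Torin1 in hypertonic medium, 9 to 15 and 9 to 14 between the lines, and 0 for Torin1 in isotonic medium and for both differences. Of all genes such fits called 3.4% to 11.7%, 1.02% to 3.31% and 24.1% to 28.5% for the hypertonic comparisons. Between the lines they called 11% to 13.1% and 24.3% to 31%. For Torin1 they called 0% to 0.757% in hypertonic and 0% to 0.159% in isotonic medium. For the differences they called 5.29% to 11.1% between the lines and 0% with Torin1. The cause of these shifts was not tested. The printed intervals are not adjusted for the number of genes tested. A difference whose interval excludes 0, such as that of P4ha3 with Torin1, can therefore fail the threshold. With 3 arrays a group, small differences may have gone undetected.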
